A study of Mus musculus with 12 samples.

Results

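The expression of mouse prostate cells labelled luminal with high surface SCA1 was compared with that of those with intermediate SCA1 (SCA1int). The comparison ran over cells with and without the surface protein LY6D. The 8 libraries of the comparison, of 12 in the series, were chosen by the label of the sorted cell population. The SCA1high group holds 2 LY6D+ SCA1high and 2 LY6D- SCA1high libraries, and it is set against 2 LY6D+ SCA1int and 2 LY6D- SCA1int libraries. The other 4 libraries, LY6D+ and LY6D- SCA1low, took part in the fit, and their levels are given near the end. Every library came from prostates of wild type C57BL/6 mice aged 6 to 8 weeks. Cells were sorted by flow cytometry after removal of the lineage fraction (CD31 for endothelium, CD45 for leukocytes, Ter119 for red cells). The libraries were made with the Lexogen QuantSeq FWD kit from 10 to 20 ng of total RNA, and a count is a read tag near the 3′ end of a polyadenylated transcript, so that levels depend little on transcript length.

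The prostate is a branched gland whose luminal cells line the ducts and secrete the proteins of prostatic fluid, while basal cells lie beneath them. Secretory luminal cells make products such as probasin, spermine binding protein and microseminoprotein in large amounts, many of them under control of the androgen receptor, and pass them through the endoplasmic reticulum, where chaperones fold them. SCA1, encoded by Ly6a, is a surface protein anchored by a lipid tail that is widely used to enrich stem and progenitor cells. In the mouse prostate it is known to be higher on luminal cells of the proximal ducts, near the urethra, than on secretory cells of the distal ducts.

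Total counts of the 8 libraries ran from 8436185 to 20022077, with LY6D+ SCA1high replicate 2 the shallowest. That library also detected the fewest genes, 7512 with at least 10 counts. The ribosomal RNA repeat on chromosome 17 took 6.97% to 16.9% of counts. Across genes, which are not independent replicates, libraries of 1 population correlated at 0.658 to 0.707 and libraries of different populations at 0.590 to 0.731, so replicates did not stand closer to each other than to other populations. Levels below are CPM scaled by TMM factors, with both libraries of a population given in replicate order. The series' text calls the replicates biological, but nothing states whether they were separate mice or pools. A p-value here sets a difference between populations against how far libraries of 1 population differ.

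Ly6a itself had 181 and 245 CPM in LY6D+ SCA1high and 593 and 477 in LY6D- SCA1high, against 44.9 and 55.5 in LY6D+ SCA1int and 102 and 148 in LY6D- SCA1int. All 4 SCA1high libraries lay above all 4 SCA1int libraries, in the order of the sort. The log2 fold change was 2.09 ± 0.52 (SE), and the gene did not pass the test (adjusted p = 0.197, edgeR's quasi-likelihood test, adjusted by Benjamini-Hochberg over 15270 genes). Over 19 alternatives Ly6a had a call in 2. These were the same test on the 8 compared libraries alone (2.07 ± 0.35 log2, adjusted p = 0.00473) and DESeq2 (2.06 ± 0.55 log2, adjusted p = 0.00917). The luminal keratins Krt8 and Krt18 were present in every library, at 66.4 to 276 and 108 to 284 CPM. Basal keratins were present too: Krt14 had 539 to 679 CPM in LY6D+ SCA1high and 20.5 to 35.6 in LY6D- SCA1high, against 324 to 373 in LY6D+ SCA1int and 178 to 193 in LY6D- SCA1int. In the LY6D+ libraries Krt14 therefore lay above Krt8, which had 119.6 to 131 CPM in LY6D+ SCA1high, against 66.4 to 85.2 in LY6D+ SCA1int, and the luminal label of those cells stands beside basal keratin RNA. In LY6D- SCA1high the label stands beside endothelial RNA. There 20 endothelial markers summed to 5551 to 6514 CPM, and 28 secretory luminal genes to 4327 to 6124 CPM.

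SCA1high libraries held less RNA of probasin and of the endoplasmic reticulum proteins calreticulin and Dnajc10 than SCA1int libraries in each LY6D state, and more RNA of gelsolin and of the membrane protein Emp1. For 4 further secretory genes (Defb50, Spink1, Sbp and Msmb) the averaged fall was called, but the libraries stood apart in LY6D- cells and overlapped in LY6D+ cells. Of 15270 genes tested, 21 were called at an adjusted p below 0.05, or 0.138%. They were 2 higher (0.0131%) and 19 lower (0.124%) in SCA1high. An unadjusted p below 0.05 was reached by 1348 genes (8.83%). In 14 of the 21 called genes both SCA1high libraries lay beyond both SCA1int libraries within each LY6D state, and in the other 7 this held in LY6D- cells alone. Over all tested genes, 2.36% lay above and 3.53% below in both states. The median log2 fold change of all tested genes was -0.10, and with library size as the only scaling it was 0.10, so changes of that size depend on the scaling. A negative log2 fold change was found in 52.8% of the tested genes and a positive one in 47.2%. Of the called genes, Gsn, Emp1, Fcgbp, Tcaf3 and Pbsn had been singled out from earlier results of these data, and their calls are not independent evidence. Of the 21 calls, glmTreat (a test against a 1.5-fold change) kept 10, an additive model of SCA1 and LY6D 9 and limma-trend on the deposited values 8.

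**Figure D1:**
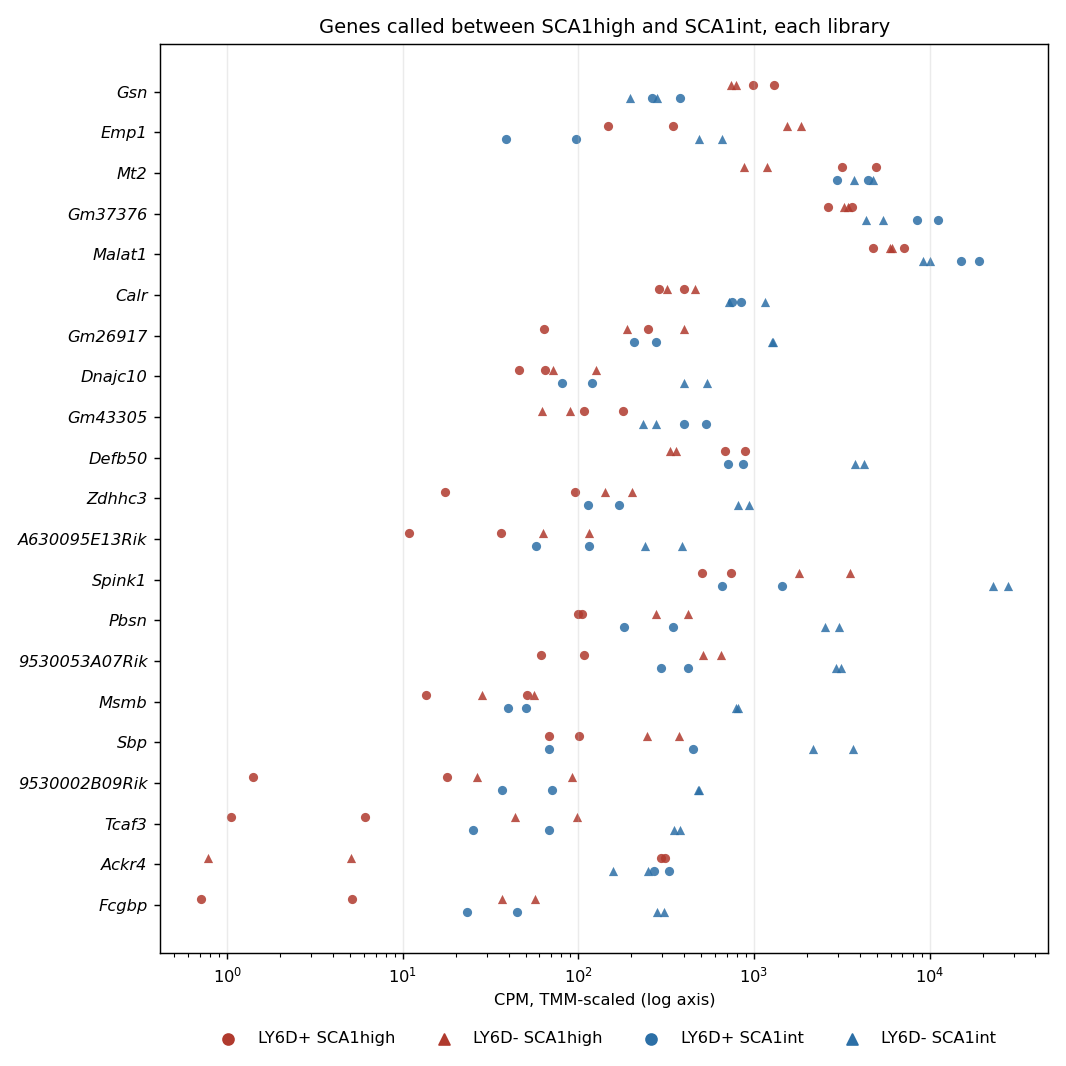
Level of each of the 21 called genes in the 8 libraries, in TMM-scaled CPM on a log axis. Each point is 1 library. Circles are LY6D+ and triangles LY6D-, red points (upper in each row) are SCA1high and blue points (lower) SCA1int. Gsn and Emp1, at the top, are the called genes that were higher in SCA1high; in the other rows red lies mostly left of blue, and the LY6D+ circles of SCA1high and SCA1int overlap in 7 genes.

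Gsn encodes gelsolin, which severs and caps actin filaments. It had 985 and 1291 CPM in LY6D+ SCA1high and 741 and 793 in LY6D- SCA1high, against 264 and 377 in LY6D+ SCA1int and 196 and 279.8 in LY6D- SCA1int. All 4 SCA1high libraries lay above all 4 SCA1int libraries, and the levels in LY6D+ and LY6D- cells were close. Gsn rose in SCA1high by 1.76 ± 0.33 log2 (adjusted p = 0.0122). Emp1 encodes a membrane protein of the PMP22 family. It had 148 and 345 CPM in LY6D+ SCA1high and 1542 and 1856 in LY6D- SCA1high, against 38.7 and 96.9 in LY6D+ SCA1int and 654 and 488 in LY6D- SCA1int. It was higher in LY6D- than in LY6D+ cells at both SCA1 levels, and within each LY6D state SCA1high lay above SCA1int. Emp1 rose by 1.72 ± 0.36 log2 (adjusted p = 0.0391). Neither gene's difference between LY6D states passed the test (adjusted p = 0.994 for Gsn and 0.969 for Emp1). Gm43128 overlaps Gsn on the same strand, and its reads could be counted for either. Both calls depend on single libraries and on the method. The call of Gsn ended with limma-trend (adjusted p = 0.203) and with glmTreat (0.145). The call of Emp1 ended with the additive model (adjusted p = 0.127), with limma-trend (0.607), with RLE size factors (0.093), with glmTreat (0.302) and with both doubted libraries left out (0.129). Gsn was not called without LY6D+ SCA1high replicate 2, LY6D+ SCA1int replicate 1, LY6D- SCA1int replicate 1 or LY6D- SCA1int replicate 2 (log2 fold changes 1.64 to 1.9, adjusted p = 0.0506 to 0.201). Emp1 was not called without LY6D+ SCA1high replicate 2, LY6D+ SCA1int replicate 1, LY6D- SCA1high replicate 1, LY6D- SCA1high replicate 2, LY6D- SCA1int replicate 1 or LY6D- SCA1int replicate 2 (log2 fold changes 1.35 to 1.83, adjusted p = 0.0895 to 0.368). Among 26 tested genes of actin binding and of the Emp family, these 2 were called higher and 0 lower, with a median log2 fold change of 0.22, against -0.10 over all genes. Over all genes 0.0131% were called higher. The list was drawn up with earlier results of these data known and holds both genes, so that count is not independent evidence. The tropomyosins Tpm1 (-0.88 ± 0.34 log2) and Tpm2 (-3.71 ± 1.13 log2), which stabilise actin filaments, had negative values without passing the test (adjusted p = 0.534 and 0.523). Beside these values, the summed level of 20 endothelial markers was 295 to 703 CPM in LY6D+ SCA1high and 5551 to 6514 in LY6D- SCA1high, against 36.5 to 361 in LY6D+ SCA1int and 1923 to 2294 in LY6D- SCA1int, and that of fibroblast and smooth muscle markers was 941 to 1478 CPM in LY6D+ SCA1high and 1198 to 1305 in LY6D- SCA1high, against 922 to 965 in LY6D+ SCA1int and 785 to 978 in LY6D- SCA1int. The endothelial sums did not overlap between SCA1 levels in LY6D- and did in LY6D+, and the fibroblast sums the same. The fibroblast sum rests most on Dcn, with 77482 counts in the 8 libraries, against 27631 for Igfbp7, the next. Dcn had a negative averaged value, whereas 14 of the 18 tested genes of that list had positive ones. That list's median was 1.82, with 3.21 within LY6D+ and 1.45 within LY6D-. The part of both lists in the values of Gsn and Emp1 was not tested.

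Pbsn encodes probasin, a secreted protein of the prostate whose androgen-controlled promoter is widely used to direct transgenes to prostate epithelium. 9530053A07Rik is named in RefSeq with the synonym FCGBP, and Fcgbp encodes a large mucus glycoprotein that binds the Fc part of IgG. The 9530053A07Rik gene starts 8603 bases beyond the end of Fcgbp on the same strand of chromosome 7. The 250 bases before each RefSeq start are shown because Pbsn and 9530053A07Rik had the smallest p-values of the comparison and because the neighbouring pair looks alike. Capitals mark TGTTCT or its reverse complement AGAACA, the core of an androgen receptor half-site, searched on both strands with no overlap with another motif capitalised. Sequences are from RefSeq on GRCm38.p6, written 5′ to 3′ on the strand of the gene (chrX:77853501-77853750, minus strand for Pbsn, chr7:28129216-28129465, plus strand for 9530053A07Rik, chr7:28070986-28071235, plus strand for Fcgbp).
Pbsn: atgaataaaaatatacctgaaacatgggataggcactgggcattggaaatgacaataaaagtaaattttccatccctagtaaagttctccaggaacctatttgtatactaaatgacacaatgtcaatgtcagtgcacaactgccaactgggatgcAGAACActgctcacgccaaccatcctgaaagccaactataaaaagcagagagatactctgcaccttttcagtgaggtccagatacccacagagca
9530053A07Rik: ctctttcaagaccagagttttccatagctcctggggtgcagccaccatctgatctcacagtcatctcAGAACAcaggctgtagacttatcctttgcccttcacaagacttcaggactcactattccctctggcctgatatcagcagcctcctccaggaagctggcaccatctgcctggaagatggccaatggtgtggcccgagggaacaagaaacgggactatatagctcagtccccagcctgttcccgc
Fcgbp: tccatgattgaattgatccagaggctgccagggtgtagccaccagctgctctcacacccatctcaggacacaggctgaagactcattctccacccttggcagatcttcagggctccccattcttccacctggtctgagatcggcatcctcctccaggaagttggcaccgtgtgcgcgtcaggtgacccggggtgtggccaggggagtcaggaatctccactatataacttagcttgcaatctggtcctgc
Pbsn and 9530053A07Rik hold 1 match each and Fcgbp holds 0, and 16.1% of 32851 windows of this length hold the motif. Among the other called genes that had a window, 9530002B09Rik held 2 matches, Sbp and Gm43305 1 each and the rest 0. A match describes the letters only. In a global alignment the windows of 9530053A07Rik and Fcgbp were identical at 183 of 243 aligned positions (75.3%).

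Pbsn had 105 and 99.5 CPM in LY6D+ SCA1high and 276 and 421 in LY6D- SCA1high, against 183 and 343 in LY6D+ SCA1int and 3055 and 2545 in LY6D- SCA1int. The SCA1high libraries lay below the SCA1int libraries within each LY6D state, and the LY6D- SCA1int pair stood far above the other 6 libraries. Pbsn fell in SCA1high by 2.18 ± 0.20 log2 (adjusted p = 1.36e-07). Its mean in LY6D- SCA1int was 8.03 times that in LY6D- SCA1high, and in LY6D+ the ratio was 2.57. 9530053A07Rik had 108 and 60.9 CPM in LY6D+ SCA1high and 514 and 651 in LY6D- SCA1high, against 419 and 295 in LY6D+ SCA1int and 2938 and 3142 in LY6D- SCA1int. It fell by 2.23 ± 0.19 log2 (adjusted p = 4.91e-08), by nearly the same step in LY6D+ (-2.08 ± 0.27) as in LY6D- (-2.38 ± 0.27). Fcgbp had 5.17 and 0.706 CPM in LY6D+ SCA1high and 36.8 and 56.8 in LY6D- SCA1high, against 23.2 and 44.5 in LY6D+ SCA1int and 307 and 280.0 in LY6D- SCA1int. It fell by 3.07 ± 0.48 log2 (adjusted p = 0.00119), and the value was -4.11 without LY6D+ SCA1high replicate 1. Whether reads of one neighbour were counted for the other was not tested, since the 3′ ends were not compared, and the values of both are uncertain in that respect. Of 9 tested mucosal barrier genes, Fcgbp was called lower and 0 were called higher, and the list's median was 0.08 (-0.03 with RLE size factors). Over all genes 0.124% were called lower, and the median was -0.10. In bulk libraries, fewer secretory cells and less RNA per cell cannot be told apart, here and for all genes that follow.

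The other called secretory genes were Defb50, Spink1, Sbp and Msmb. Defb50 encodes a beta-defensin, an antimicrobial peptide, and had 888 and 683 CPM in LY6D+ SCA1high and 333 and 361 in LY6D- SCA1high, against 865 and 712 in LY6D+ SCA1int and 3752 and 4219 in LY6D- SCA1int. Its LY6D+ libraries overlapped, and its LY6D- SCA1high pair lay 11.5 times below the LY6D- SCA1int pair by the means. Spink1 encodes a secreted inhibitor of trypsin, and had 742 and 507 CPM in LY6D+ SCA1high and 1792 and 3504 in LY6D- SCA1high, against 653 and 1437 in LY6D+ SCA1int and 22780.2 and 27939 in LY6D- SCA1int. It was the most abundant of these genes in LY6D- SCA1int cells. Sbp encodes spermine binding protein, and had 100.3 and 67.6 CPM in LY6D+ SCA1high and 247 and 375 in LY6D- SCA1high, against 67.9 and 450.2 in LY6D+ SCA1int and 2170.2 and 3642 in LY6D- SCA1int. Msmb encodes beta-microseminoprotein, and had 13.5 and 50.9 CPM in LY6D+ SCA1high and 28.2 and 56.2 in LY6D- SCA1high, against 39.8 and 50.3 in LY6D+ SCA1int and 808 and 785 in LY6D- SCA1int. Msmb overlaps Gm18909 on the opposite strand by 1324 bases, so that its reads are uncertain in the same way as other overlapping genes. In all 4 genes the LY6D- SCA1high libraries lay below the LY6D- SCA1int libraries while the LY6D+ libraries overlapped. Averaged over LY6D, the log2 fold changes were -1.76 ± 0.18 for Defb50 (adjusted p = 5.30e-07), -2.0 ± 0.22 for Spink1 (3.01e-06), -2.43 ± 0.33 for Sbp (1.42e-04) and -2.36 ± 0.37 for Msmb (0.00119). That of Sbp was -1.46 without LY6D+ SCA1int replicate 2, and that of Msmb was -2.99 without LY6D+ SCA1high replicate 2. Sbp has a close relative, Sbpl, at -2.39 ± 0.52 log2 (adjusted p = 0.0523). Over the 19 alternatives Sbpl had -3.01 to -0.42 log2, with a call in 6. Whether reads were split between Sbp and Sbpl was not tested. Of 27 tested secretory luminal genes, 5 were called lower (0.124% over all genes) and 0 higher, and 20 had negative values (52.8% over all genes). Their median was -1.18, with -0.16 within LY6D+ and -2.25 within LY6D-, against -0.10, -0.07 and -0.06 over all genes. The list was drawn up with earlier results of these data known and holds the called genes, so these counts are not independent evidence. The summed level of the list was 2397 to 2863 CPM in LY6D+ SCA1high and 4327 to 6124 in LY6D- SCA1high, against 2958 to 3838 in LY6D+ SCA1int and 36738 to 43497 in LY6D- SCA1int.

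9530002B09Rik, listed in RefSeq with the synonym Vpp1, had 17.8 and 1.41 CPM in LY6D+ SCA1high and 26.3 and 91.5 in LY6D- SCA1high, against 36.8 and 70.4 in LY6D+ SCA1int and 488 and 478 in LY6D- SCA1int. It fell by 2.75 ± 0.52 log2 (adjusted p = 0.0124), was not called without LY6D- SCA1high replicate 1 (log2 fold change -2.48, adjusted p = 0.0508), and was -4.14 without LY6D+ SCA1high replicate 1 and -3.41 without LY6D- SCA1high replicate 2. A630095E13Rik, whose RefSeq symbol is Pate14, had 10.8 and 36.2 CPM in LY6D+ SCA1high and 115 and 62.9 in LY6D- SCA1high, against 114 and 57.3 in LY6D+ SCA1int and 391 and 238 in LY6D- SCA1int. It fell by 1.85 ± 0.38 log2 (adjusted p = 0.0391) and was not called without LY6D+ SCA1high replicate 1, LY6D+ SCA1int replicate 1, LY6D- SCA1high replicate 2 or LY6D- SCA1int replicate 1 (log2 fold changes -1.68 to -1.53, adjusted p = 0.139 to 0.272). It lies within the annotation of another gene, Gm49367, on the same strand, so its reads cannot be assigned with certainty. In both genes the SCA1high libraries lay below the SCA1int libraries in each LY6D state.

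Tcaf3 encodes a TRPM8 channel-associated factor, and its relatives Tcaf1 and Tcaf2 are known to bind this cold-sensing ion channel. It had 6.07 and 1.06 CPM in LY6D+ SCA1high and 43.5 and 98.3 in LY6D- SCA1high, against 67.7 and 25.1 in LY6D+ SCA1int and 380.3 and 352 in LY6D- SCA1int. The SCA1high libraries lay below the SCA1int libraries in each LY6D state. Tcaf3 fell by 3.02 ± 0.43 log2 (adjusted p = 2.24e-04) and was -3.91 without LY6D+ SCA1high replicate 1. Within LY6D+ it was called as well, at -3.67 ± 0.62 log2 (adjusted p = 0.0101), although not without LY6D+ SCA1high replicate 2 or LY6D+ SCA1int replicate 1 (log2 fold changes -2.93 to -2.78, adjusted p = 0.103 to 0.132). The within-LY6D+ call ended with limma-trend (adjusted p = 0.293), with the 8 compared libraries alone (0.225) and with both doubted libraries left out (0.126). That within-LY6D+ value was -5.44 without LY6D+ SCA1high replicate 1. Tcaf2 had -0.68 ± 0.62 log2 (adjusted p = 0.833) and Tcaf1 0.18 ± 1.27 log2 (adjusted p = 1), so 1 of 3 tested members was called lower, against 0.124% of all genes.

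Tgm4 encodes the transglutaminase that cross-links proteins of the copulatory plug, and Zdhhc3 an enzyme that attaches palmitate to proteins in the Golgi. On chromosome 9 they run toward each other and their annotations overlap by 1402 bases. Tgm4 had 91.5 and 4 CPM in LY6D+ SCA1high and 217 and 220.1 in LY6D- SCA1high, against 181 and 138 in LY6D+ SCA1int and 1119 and 958 in LY6D- SCA1int. Zdhhc3 had 95.5 and 17.4 CPM in LY6D+ SCA1high and 142 and 203 in LY6D- SCA1high, against 169 and 114 in LY6D+ SCA1int and 937 and 813 in LY6D- SCA1int. The levels of the 2 genes followed each other over the populations. Zdhhc3 was called, at -1.83 ± 0.33 log2 (adjusted p = 0.00636), with -2.68 without LY6D+ SCA1high replicate 1, and Tgm4 had -1.99 ± 0.44 log2 without a call (adjusted p = 0.0582). Over the 19 alternatives Tgm4 had -3.78 to -1.53 log2, with a call in 9. Whether the counting used strand is not given in the sources used here, and reads of the 2 genes cannot be told apart.

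Calr and Dnajc10 act in the endoplasmic reticulum: calreticulin binds calcium and folds glycoproteins, and Dnajc10 reduces disulfide bonds of misfolded proteins. The Calr window is shown because it holds a match to the endoplasmic reticulum stress element (CCAAT and CCACG with 9 bases between them, searched on both strands, the whole match in capitals), which 0.113% of 32851 windows hold. It lies at chr8:84846932-84847181, minus strand (GRCm38.p6, RefSeq). The element was searched in every called gene that had a window, and Dnajc10 and the others held 0 matches.
Calr: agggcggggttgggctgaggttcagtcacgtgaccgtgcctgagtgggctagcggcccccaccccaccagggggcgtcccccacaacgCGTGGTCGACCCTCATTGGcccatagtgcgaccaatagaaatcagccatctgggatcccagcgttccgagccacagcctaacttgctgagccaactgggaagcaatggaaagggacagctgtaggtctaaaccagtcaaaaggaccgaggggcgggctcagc
Calr had 287 and 399 CPM in LY6D+ SCA1high and 319 and 459 in LY6D- SCA1high, against 842 and 748 in LY6D+ SCA1int and 722 and 1156 in LY6D- SCA1int. All 4 SCA1high libraries lay below all 4 SCA1int libraries. Calr fell by 1.24 ± 0.23 log2 (adjusted p = 0.00857), with nearly equal steps in LY6D+ (-1.21 ± 0.32) and LY6D- (-1.27 ± 0.32). Dnajc10 had 45.7 and 64.3 CPM in LY6D+ SCA1high and 71.3 and 125 in LY6D- SCA1high, against 119 and 80.9 in LY6D+ SCA1int and 402 and 537 in LY6D- SCA1int. It fell by 1.56 ± 0.32 log2 (adjusted p = 0.036) and lay lower in SCA1high within each LY6D state. Calr was not called without LY6D+ SCA1high replicate 1, LY6D- SCA1high replicate 1 or LY6D- SCA1int replicate 2 (log2 fold changes -1.13 to -1.05, adjusted p = 0.0642 to 0.154). Dnajc10 was not called without LY6D+ SCA1high replicate 1, LY6D+ SCA1int replicate 1, LY6D- SCA1high replicate 1, LY6D- SCA1int replicate 1 or LY6D- SCA1int replicate 2 (log2 fold changes -1.66 to -1.38, adjusted p = 0.0813 to 0.405). The list of protein secretion and unfolded protein response genes did not hold Dnajc10. Of its 42 tested genes Calr was called lower, against 0.124% over all genes, and 0 were called higher. The median was -0.45, against -0.10 over all genes. It was 0.07 within LY6D+ and -0.84 within LY6D-. The chaperone Hsp90b1 had -0.65 ± 0.30 log2, Sdf2l1 -3.51 ± 1.0 and the translocon subunit Ssr4 -1.32 ± 0.53, none with a call (adjusted p = 0.551, 0.429 and 0.534). Hspa5, the main chaperone of the compartment, had 1449.9 and 1298 CPM in LY6D+ SCA1high and 1269 and 1093 in LY6D- SCA1high, against 842 and 1022 in LY6D+ SCA1int and 2044 and 2523 in LY6D- SCA1int. Its SCA1high libraries lay above those of SCA1int in LY6D+ and below them in LY6D-, and the difference of the steps, 1.51 ± 0.35 log2, was not called (adjusted p = 0.339).

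Malat1 is a long noncoding RNA kept in the nucleus. It had 4730.4 and 7099 CPM in LY6D+ SCA1high and 6085 and 5972 in LY6D- SCA1high, against 19156 and 15164 in LY6D+ SCA1int and 10024 and 9205 in LY6D- SCA1int. Malat1 fell by 1.10 ± 0.12 log2 (adjusted p = 3.01e-06). Gm37376, an unclassified transcript inside Malat1 on the opposite strand with 453 shared bases, fell by 1.10 ± 0.15 log2 (adjusted p = 1.58e-04) and moved with it in all populations, so the 2 cannot be told apart. Within LY6D+ both were called, Malat1 at -1.54 ± 0.17 and Gm37376 at -1.65 ± 0.22 log2 (adjusted p = 2.48e-05 and 1.61e-04). Within LY6D- neither was (adjusted p = 0.242 and 0.568). Gm26917 is annotated beside the ribosomal RNA repeat on chromosome 17 and had 63.3 and 249.9 CPM in LY6D+ SCA1high and 189 and 398 in LY6D- SCA1high, against 277 and 208 in LY6D+ SCA1int and 1282 and 1272 in LY6D- SCA1int. It fell by 1.38 ± 0.29 log2 (adjusted p = 0.0391), was not called without LY6D+ SCA1high replicate 1, LY6D+ SCA1int replicate 1, LY6D- SCA1high replicate 1, LY6D- SCA1int replicate 1 or LY6D- SCA1int replicate 2 (log2 fold changes -1.38 to -1.04, adjusted p = 0.0838 to 0.279), and was -2.03 without LY6D+ SCA1high replicate 2. Gm43305, a processed transcript, had 179 and 107 CPM in LY6D+ SCA1high and 90.1 and 62.3 in LY6D- SCA1high, against 531 and 397 in LY6D+ SCA1int and 277 and 233 in LY6D- SCA1int. It fell by 1.72 ± 0.36 log2 (adjusted p = 0.0391) and was not called without LY6D+ SCA1high replicate 1, LY6D+ SCA1high replicate 2, LY6D+ SCA1int replicate 1, LY6D- SCA1high replicate 1, LY6D- SCA1high replicate 2, LY6D- SCA1int replicate 1 or LY6D- SCA1int replicate 2 (log2 fold changes -1.93 to -1.56, adjusted p = 0.0535 to 0.319).

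The step between SCA1 levels was larger in LY6D- than in LY6D+ cells for 14 of the 19 called genes that were lower, and larger in LY6D+ for 5. Among the 8067 tested genes with a negative averaged value it was more negative in LY6D- for 51%. Within LY6D-, 17 genes were called (0.111%), 1 higher (0.00655%) and 16 lower (0.105%). DESeq2 gave another balance there, 292 higher and 211 lower. Within LY6D+, 4 genes were called (0.0262%), all lower. Those within LY6D+ were Malat1, Gm37376, 9530053A07Rik and Tcaf3. The difference of the steps, LY6D+ minus LY6D-, was called for 4 genes (0.0262%), Defb50, Spink1, Mt2 and Ackr4. All 4 differences were positive, whereas DESeq2 called 85 positive and 377 negative differences, with 2 of the 4 among them. In each of the 4 the LY6D- pairs did not overlap and the LY6D+ pairs did. An unadjusted p below 0.05 was reached by 8.32% of genes within LY6D-, by 5.23% within LY6D+ and by 8.59% for the difference.

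**Figure D2:**
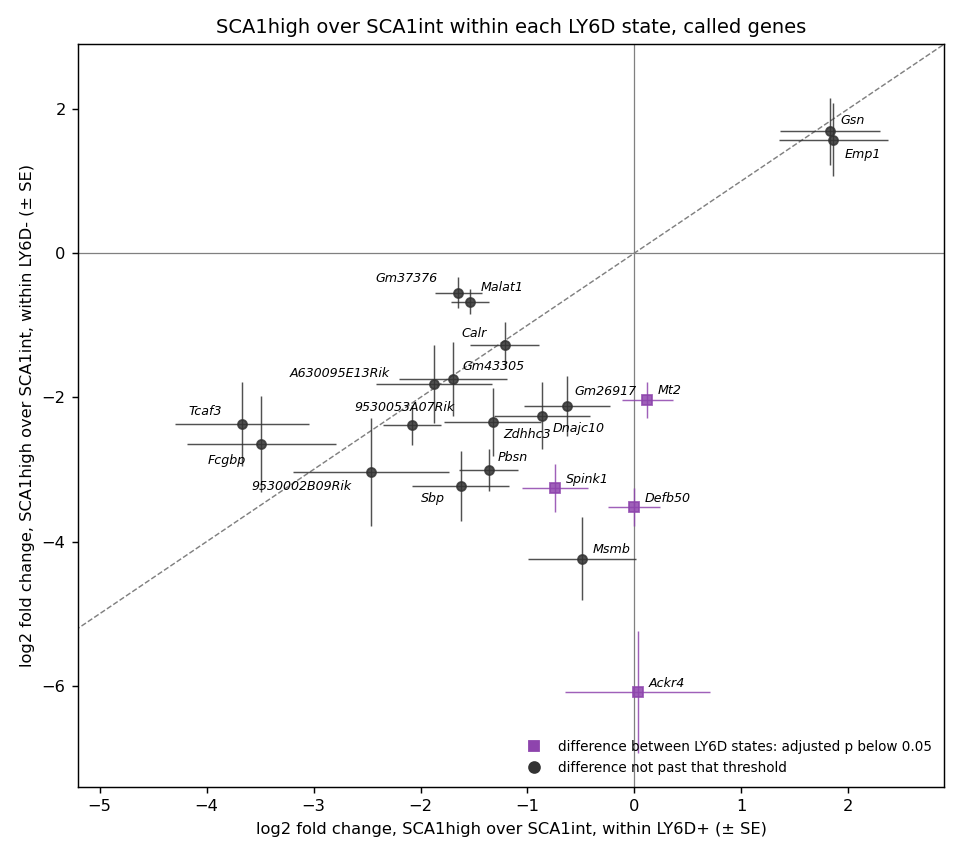
Log2 fold change of SCA1high over SCA1int for the 21 called genes, within LY6D+ on the horizontal axis and within LY6D- on the vertical axis, with bars for the SE. Purple squares are the 4 genes whose difference between LY6D states was called, and they lie between -0.74 and 0.12 within LY6D+ and between -6.09 and -2.03 within LY6D-. Genes on the dashed line have equal steps, as Gsn, Emp1 and Calr nearly do.

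Within LY6D+ the step of Defb50 was -0.01 ± 0.24 log2, and within LY6D- it was -3.52 ± 0.27. The difference of 3.52 ± 0.35 was called (adjusted p = 1.70e-06) and kept its call under all 18 alternatives. Spink1 had -0.74 ± 0.30 within LY6D+ and -3.26 ± 0.33 within LY6D-, a difference of 2.52 ± 0.43 (adjusted p = 0.0127). The call of Spink1 ended with DESeq2 (adjusted p = 0.198), with limma-trend (0.92), with RLE size factors (0.333) and with glmTreat (0.0728). It was not called without LY6D- SCA1high replicate 1 or LY6D- SCA1int replicate 2 (log2 fold changes 1.87 to 2.36, adjusted p = 0.0879 to 0.224), and was 3.20 without LY6D+ SCA1int replicate 2. The differences of Msmb (3.75 ± 0.73, adjusted p = 0.0641), Pbsn (1.64 ± 0.39, 0.339) and Prdx6 (2.58 ± 0.57, 0.252) were not called. Prdx6, a peroxiredoxin that reduces lipid peroxides, was called within LY6D- alone, where it had 165 and 175 CPM in LY6D- SCA1high, against 727 and 754 CPM in LY6D- SCA1int.

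Mt2 encodes a metallothionein, a small protein that binds zinc and copper and is induced by metals. Its window is shown because it holds 3 matches to the core of a metal response element (TGCACNC or TGCGCNC, both strands, in capitals), which 21.4% of 32851 windows hold at least once. It lies at chr8:94172368-94172617, plus strand (GRCm38.p6, RefSeq). Among the other called genes that had a window, Zdhhc3 held 2 matches, 9530053A07Rik, Sbp and Gsn 1 each and the rest 0.
Mt2: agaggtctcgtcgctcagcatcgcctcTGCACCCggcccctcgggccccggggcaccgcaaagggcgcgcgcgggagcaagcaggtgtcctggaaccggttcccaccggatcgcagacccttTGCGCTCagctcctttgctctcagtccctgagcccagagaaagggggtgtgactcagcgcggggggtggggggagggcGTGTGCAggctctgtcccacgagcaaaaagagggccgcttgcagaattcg
Mt2 had 4913 and 3165 CPM in LY6D+ SCA1high and 1189.6 and 878 in LY6D- SCA1high, against 4456 and 2974 in LY6D+ SCA1int and 4772 and 3692 in LY6D- SCA1int. The LY6D- SCA1high pair stood below the other 6 libraries, whose ranges overlapped between SCA1 levels. Averaged over LY6D, Mt2 fell by 0.96 ± 0.17 log2 (adjusted p = 0.00615). It was not called without LY6D+ SCA1high replicate 2 or LY6D- SCA1int replicate 1 (log2 fold changes -0.86 to -0.81, adjusted p = 0.0513 to 0.0934). The difference between LY6D states was 2.15 ± 0.34 log2 (adjusted p = 0.00569), and it was not called without LY6D- SCA1int replicate 1 (log2 fold change 2.0, adjusted p = 0.0688). That call also ended with DESeq2 (adjusted p = 0.0894) and with limma-trend (0.246), and the averaged call with the additive model (adjusted p = 0.727), with DESeq2 (0.0938), with library size alone (0.081) and with glmTreat (0.619). Gm45774 overlaps Mt2 on the opposite strand by 749 bases and was called within LY6D- at -2.15 ± 0.40 log2 (adjusted p = 0.0191), though not without LY6D- SCA1high replicate 1, LY6D- SCA1high replicate 2, LY6D- SCA1int replicate 1 or LY6D- SCA1int replicate 2 (log2 fold changes -2.44 to -1.82, adjusted p = 0.0779 to 0.443), and the 2 cannot be told apart.

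Ackr4 encodes an atypical receptor that takes up chemokines without signalling. It had 296 and 312 CPM in LY6D+ SCA1high and 0.782 and 5.08 in LY6D- SCA1high, against 268 and 327 in LY6D+ SCA1int and 157 and 248 in LY6D- SCA1int. In LY6D- SCA1high cells it was near 0 with 10 and 120 counts, while the LY6D- SCA1int pair lay below both LY6D+ pairs, which overlapped. The log2 fold change was -6.09 ± 0.85 within LY6D- (adjusted p = 1.76e-04) and 0.03 ± 0.68 within LY6D+, with -3.03 ± 0.52 as the average (adjusted p = 0.00392), so the averaged call rests on LY6D- cells. The average was -4.04 without LY6D- SCA1high replicate 2. The within-LY6D- value was -5.22 without LY6D- SCA1high replicate 1 and -7.99 without LY6D- SCA1high replicate 2. The difference between LY6D states was 6.12 ± 1.04 log2 (adjusted p = 0.0125), not called without LY6D+ SCA1int replicate 1, LY6D+ SCA1int replicate 2, LY6D- SCA1high replicate 1 or LY6D- SCA1int replicate 2 (log2 fold changes 5.13 to 6.27, adjusted p = 0.0682 to 0.224), and 7.90 without LY6D- SCA1high replicate 2. That call also ended with limma-trend (adjusted p = 0.882), and the averaged call with the additive model (adjusted p = 0.536) and with limma-trend (0.135). Acad11 spans Ackr4 on the opposite strand and had 26.4 and 0.118 CPM in LY6D+ SCA1high and 51 and 24.8 in LY6D- SCA1high, against 71 and 16.9 in LY6D+ SCA1int and 0.412 and 7.12 in LY6D- SCA1int, an order unlike that of Ackr4.

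The other genes called within LY6D- included 1 that rose. Nfkbia encodes the inhibitor that holds NF-kB in the cytoplasm and is itself a target of NF-kB. It had 3572 and 3679 CPM in LY6D- SCA1high, against 1328 and 1559 CPM in LY6D- SCA1int, and within LY6D+ 1117 and 1359 CPM in SCA1high, against 1265 and 1129 in SCA1int. The pairs did not overlap in LY6D- and did in LY6D+. Nfkbia rose within LY6D- by 1.33 ± 0.28 log2 (adjusted p = 0.0495), and the difference between LY6D states, -1.28 ± 0.39, was not called (adjusted p = 0.561). Of 21 tested genes of NF-kB feedback and targets, it was the 1 called within LY6D-, where 0.00655% of all genes were called higher. The list's median was 0.91 within LY6D- and 0.70 within LY6D+, against -0.06 and -0.07 over all genes. Nfkbia was not called without LY6D- SCA1high replicate 1, LY6D- SCA1high replicate 2, LY6D- SCA1int replicate 1 or LY6D- SCA1int replicate 2 (log2 fold changes 1.22 to 1.45, adjusted p = 0.297 to 0.807), and its call ended with DESeq2 (adjusted p = 0.0888), with limma-trend (0.178), with RLE size factors (0.0553) and with glmTreat (0.613).

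Cldn4 encodes a claudin of tight junctions. It had 589 and 336 CPM in LY6D- SCA1high, against 1842 and 1132 CPM in LY6D- SCA1int, and fell within LY6D- by 1.69 ± 0.35 log2 (adjusted p = 0.0423). In LY6D+ it had 1611 and 1635 CPM in SCA1high, against 1304 and 1284 in SCA1int. It was the 1 called gene within LY6D- among 17 tested claudins and tight junction genes, with a list median of -1.17 there and -0.08 within LY6D+. Over all genes 0.105% were called lower within LY6D-, and the median there was -0.06. Defb1, another beta-defensin, had 1.88 and 32.9 CPM in LY6D- SCA1high, against 314 and 376 CPM in LY6D- SCA1int. It fell by 4.31 ± 0.86 log2 (adjusted p = 0.0342), and the value was -3.29 without LY6D- SCA1high replicate 1 and -7.50 without LY6D- SCA1high replicate 2. Scpep1, a serine carboxypeptidase, had 58.6 and 14.7 CPM in LY6D- SCA1high, against 325 and 443 CPM in LY6D- SCA1int. It fell by 3.39 ± 0.70 log2 (adjusted p = 0.0423), and the value was -4.61 without LY6D- SCA1high replicate 1 and -2.70 without LY6D- SCA1high replicate 2. Scpep1os overlaps Scpep1 on the opposite strand, and reads of the 2 cannot be told apart. Cldn4 was not called without LY6D- SCA1high replicate 1, LY6D- SCA1high replicate 2 or LY6D- SCA1int replicate 1 (log2 fold changes -2.03 to -1.29, adjusted p = 0.0795 to 0.807), Defb1 was not called without LY6D- SCA1high replicate 1, LY6D- SCA1int replicate 1 or LY6D- SCA1int replicate 2 (log2 fold changes -4.43 to -3.29, adjusted p = 0.141 to 0.608), and Scpep1 was not called without LY6D- SCA1high replicate 2, LY6D- SCA1int replicate 1 or LY6D- SCA1int replicate 2 (log2 fold changes -3.60 to -2.70, adjusted p = 0.155 to 0.671). Prdx6, Dnajc10 and Zdhhc3, called within LY6D- at -2.12 ± 0.41, -2.25 ± 0.46 and -2.34 ± 0.47 log2, each lost that call when any 1 of the 4 LY6D- libraries was left out, with adjusted p = 0.0749 to 0.968 over the 3. Gm26917 was called within LY6D- too (-2.12 ± 0.42, adjusted p = 0.0306), not without LY6D- SCA1high replicate 1, LY6D- SCA1int replicate 1 or LY6D- SCA1int replicate 2 (log2 fold changes -2.13 to -1.58, adjusted p = 0.144 to 0.968), and was -2.74 without LY6D- SCA1high replicate 2.

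The basal keratins Krt14, Krt5 and Krt17 did not pass the test but had opposite orders in the 2 LY6D states. Krt14, a keratin of basal cells, had 539 and 679 CPM in LY6D+ SCA1high and 20.5 and 35.6 in LY6D- SCA1high, against 373 and 324 in LY6D+ SCA1int and 178 and 193 in LY6D- SCA1int. In LY6D+ both SCA1high libraries lay above both SCA1int libraries, and in LY6D- below them. The step was 0.80 ± 0.55 log2 within LY6D+ and -2.72 ± 0.58 within LY6D- (adjusted p = 0.054), and the difference of 3.53 ± 0.79 was not called (adjusted p = 0.282). Krt5 and Krt17 had the same order, with differences of 2.88 ± 0.88 and 5.04 ± 1.64 log2 (adjusted p = 0.561 and 0.561). Krt15 had 2626 and 2644 CPM in LY6D+ SCA1high and 266 and 230.3 in LY6D- SCA1high, against 2734 and 1482 in LY6D+ SCA1int and 964 and 1087 in LY6D- SCA1int, with overlapping LY6D+ pairs and -2.05 ± 0.44 log2 within LY6D- (adjusted p = 0.054). Of 25 tested basal genes 0 were called, 21 had negative averaged values and the median was -0.73. Sparc and Dst, with Krt15 the most abundant of the list, had 0.72 ± 0.35 and -0.98 ± 0.36 log2, so that Sparc went against the sign of most of the list. The summed level of the basal list was 5639.5 to 5846 CPM in LY6D+ SCA1high and 2325 to 2568 in LY6D- SCA1high, against 4598 to 6249 in LY6D+ SCA1int and 3004 to 3082 in LY6D- SCA1int. In LY6D- SCA1high Krt14 and Krt15 were a small part of that sum, so it is not a measure of basal keratin RNA.

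Genes known from proximal luminal cells gave no call among 23 tested. Their median was 0.79, with 1.80 within LY6D+ and -0.35 within LY6D-, and 20 averaged values were positive. Tspan1, a tetraspanin, had 60.7 and 244 CPM in LY6D+ SCA1high and 224 and 144 in LY6D- SCA1high, against 25.3 and 23.2 in LY6D+ SCA1int and 262 and 238 in LY6D- SCA1int. The pairs did not overlap in LY6D+, where the step was 2.65 ± 0.62 log2 (adjusted p = 0.422). The copper protein ceruloplasmin, Cp, had -1.19 ± 0.48 log2 on average (adjusted p = 0.534), against the sign of the list. Of 17 tested S100 and annexin genes 0 were called, and the median was 0.52; S100a6 had 0.79 ± 0.33 and Anxa2 0.83 ± 0.35 log2 (adjusted p = 0.534 and 0.534).

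**Figure D3:**
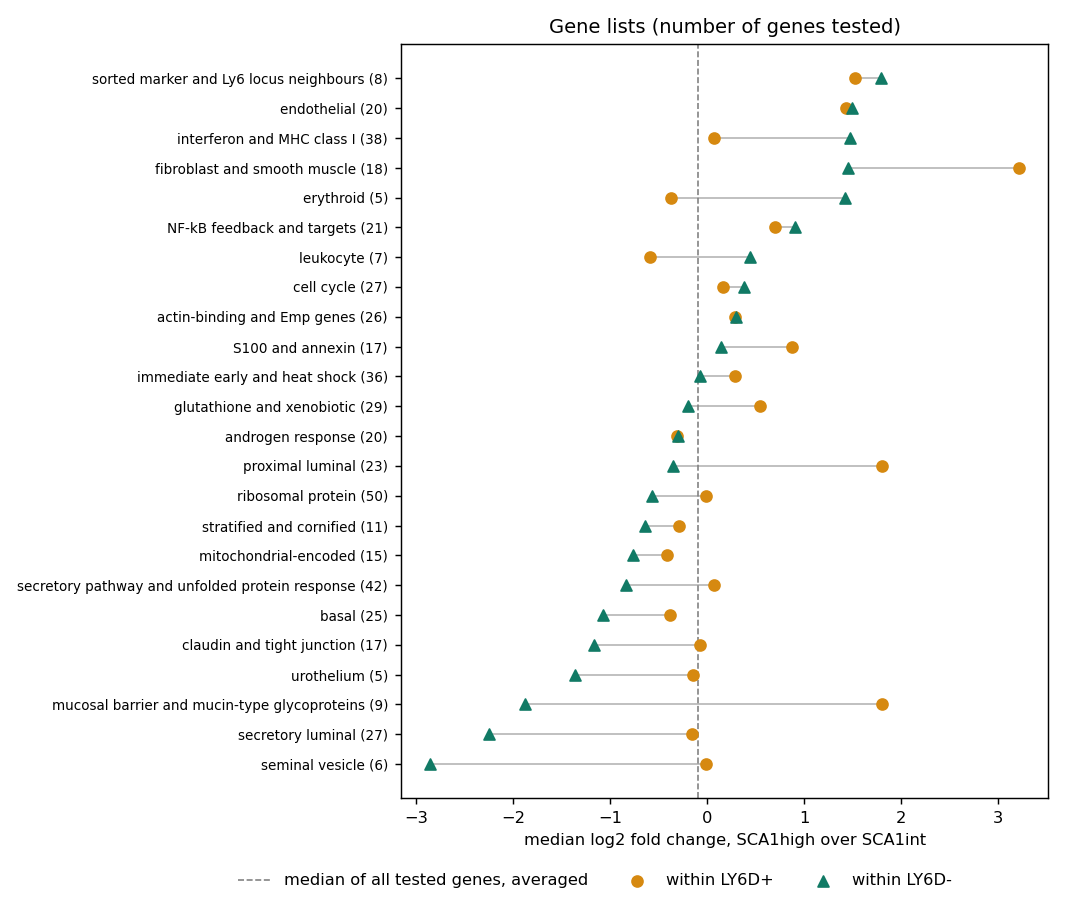
Median log2 fold change of SCA1high over SCA1int for each gene list with at least 5 tested genes, apart from the 5 given markers, within LY6D+ (circles) and within LY6D- (triangles), with the number of genes tested in brackets. The dashed line is the averaged median of all tested genes, -0.10. Of the lists drawn, those of seminal vesicle and secretory luminal genes have the lowest medians within LY6D-, -2.86 and -2.25, and lie near 0 within LY6D+, at -0.01 and -0.16.

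Of 38 tested genes of the interferon response and of MHC class I, the molecules that present peptides at the cell surface, 0 were called, 6 reached an unadjusted p below 0.05 as higher and 0 as lower, and the median was 0.91. Over all genes 3.52% reached it as higher. The list's median was 0.07 within LY6D+ and 1.47 within LY6D-. At that threshold 2 of its genes were higher and 1 lower within LY6D+, and 5 higher and 0 lower within LY6D-. The MHC heavy chain H2-D1 had 405 and 519 CPM in LY6D+ SCA1high and 1255 and 1042 in LY6D- SCA1high, against 172 and 199 in LY6D+ SCA1int and 741 and 666 in LY6D- SCA1int, with SCA1high above SCA1int in each LY6D state. B2m, the light chain of MHC class I, had 339 and 356 CPM in LY6D+ SCA1high and 871 and 935 in LY6D- SCA1high, against 129.6 and 137 in LY6D+ SCA1int and 743 and 569 in LY6D- SCA1int. The log2 fold changes were 1.01 ± 0.28 and 0.92 ± 0.27, and neither was called (adjusted p = 0.31 and 0.473). The H2 genes are near-identical in parts, and the copy that was read is uncertain.

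All 15 tested transcripts of the mitochondrial genome had negative averaged values, with a median of -0.64. None was called, and 12 reached an unadjusted p below 0.05, against 5.31% of all genes as lower. The cytochrome oxidase subunit mt-Co1 had 1469 and 1221 CPM in LY6D+ SCA1high and 1950.0 and 2099 in LY6D- SCA1high, against 2662 and 1474 in LY6D+ SCA1int and 3416 and 2942 in LY6D- SCA1int. It had -0.64 ± 0.17 log2 (adjusted p = 0.296), and although SCA1high lay below SCA1int in each LY6D state, the nearest libraries in LY6D+ differed little, with 1469 CPM in SCA1high and 1474 in SCA1int. All 15 kept that sign with RLE size factors and with library size as the only scaling. Of 50 ribosomal protein genes, 48 had negative values and 0 were called (median -0.28), and with library size as the only scaling 33 were negative, so their direction depends on the scaling.

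Genes of seminal vesicle secretions gave no call among 6 tested, all with negative averaged values (median -1.52). Svs5 had 157 and 149.7 CPM in LY6D+ SCA1high and 111 and 324 in LY6D- SCA1high, against 215 and 420.1 in LY6D+ SCA1int and 1623 and 685 in LY6D- SCA1int, with the LY6D- SCA1int pair highest. The log2 fold changes were -1.73 ± 0.51 for Svs5, -1.64 ± 0.53 for Svs2 and -1.41 ± 0.53 for Pate4 (adjusted p = 0.473, 0.534 and 0.534). Summed, the list had 609 to 757 CPM in LY6D+ SCA1high and 279.7 to 605 in LY6D- SCA1high, against 547 to 904 in LY6D+ SCA1int and 1616 to 4642 in LY6D- SCA1int. It moved with the secretory genes, and its part in their values was not tested.

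Markers of other cells were measured because the sort could carry them. Of 20 tested endothelial genes 0 were called, 8 reached an unadjusted p below 0.05 as higher and 1 as lower, against 3.52% and 5.31% of all genes, and the median was 1.51. Their summed level, given with Gsn and Emp1, was highest in the LY6D- SCA1high libraries, although the sort removed CD31+ cells. The endothelial receptor Kdr had 19.4 and 61.7 CPM in LY6D+ SCA1high and 463 and 392 in LY6D- SCA1high, against 2.21 and 22.4 in LY6D+ SCA1int and 166 and 276 in LY6D- SCA1int, and Pecam1, which encodes CD31, had 38.3 and 47.6 CPM in LY6D+ SCA1high and 573 and 401 in LY6D- SCA1high, against 2.43 and 49 in LY6D+ SCA1int and 144 and 159 in LY6D- SCA1int. The most abundant of the list, Esam (1.51 ± 0.61 log2), Flt1 (1.5 ± 0.60) and Selp (1.44 ± 0.67), were not called (adjusted p = 0.534, 0.534 and 0.551). Cdh5 had 3.11 ± 1.47 log2 (adjusted p = 0.553) and -0.19 without LY6D+ SCA1high replicate 2. Of 18 tested fibroblast and smooth muscle genes 0 were called and the median was 1.82. Col1a1, a collagen chain of fibroblasts, had 24.5 and 113 CPM in LY6D+ SCA1high and 49.6 and 49.6 in LY6D- SCA1high, against 1.29 and 9.9 in LY6D+ SCA1int and 36.4 and 0.772 in LY6D- SCA1int, and the most abundant of the list, Dcn (-0.50 ± 0.27 log2), Igfbp7 (1.62 ± 0.58) and Col1a2 (2.13 ± 0.96), were not called (adjusted p = 0.625, 0.534 and 0.546). The part of these cells in the genes that were higher in SCA1high was not tested.

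Leukocyte markers were at or near 0. The list summed to 41.3 to 51 CPM in LY6D+ SCA1high and 28 to 49 in LY6D- SCA1high, against 26.4 to 50.4 in LY6D+ SCA1int and 17.1 to 50.2 in LY6D- SCA1int, Ptprc (CD45) had 7 counts in 3 of the 8 libraries, Cd3e had 0 in all, and 7 of 20 listed genes passed the filter on low counts with 0 called. The most abundant of them, Csf1r, H2-Aa and H2-Ab1, had -1.18 ± 1.45, -0.90 ± 2.14 and -0.46 ± 0.78 log2. Of the red cell list 5 of 10 genes passed and 0 were called. Its sum was 4.95 to 431 CPM in LY6D+ SCA1high and 28.5 to 95.1 in LY6D- SCA1high, against 46.3 to 269 in LY6D+ SCA1int and 20.6 to 60.2 in LY6D- SCA1int, Alas2 was at 0 in all 8 libraries, and the globins Hba-a2, Hbb-bs and Hba-a1, the most abundant, had 1.42 ± 1.18, 1.95 ± 1.42 and 1.47 ± 1.20 log2. Of the neuroendocrine list 0 of 8 genes passed the filter and Chga was at 0. Of the urothelial list 5 of 10 passed and 0 were called, with Gata3 (-0.65 ± 0.56 log2), Foxa1 (-0.68 ± 0.72) and Upk1b (-1.87 ± 1.15) the most abundant, and its summed level was 241 to 378 CPM in LY6D+ SCA1high and 85.9 to 164 in LY6D- SCA1high, against 304 to 363 in LY6D+ SCA1int and 221 to 377 in LY6D- SCA1int.

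**Figure D4:**
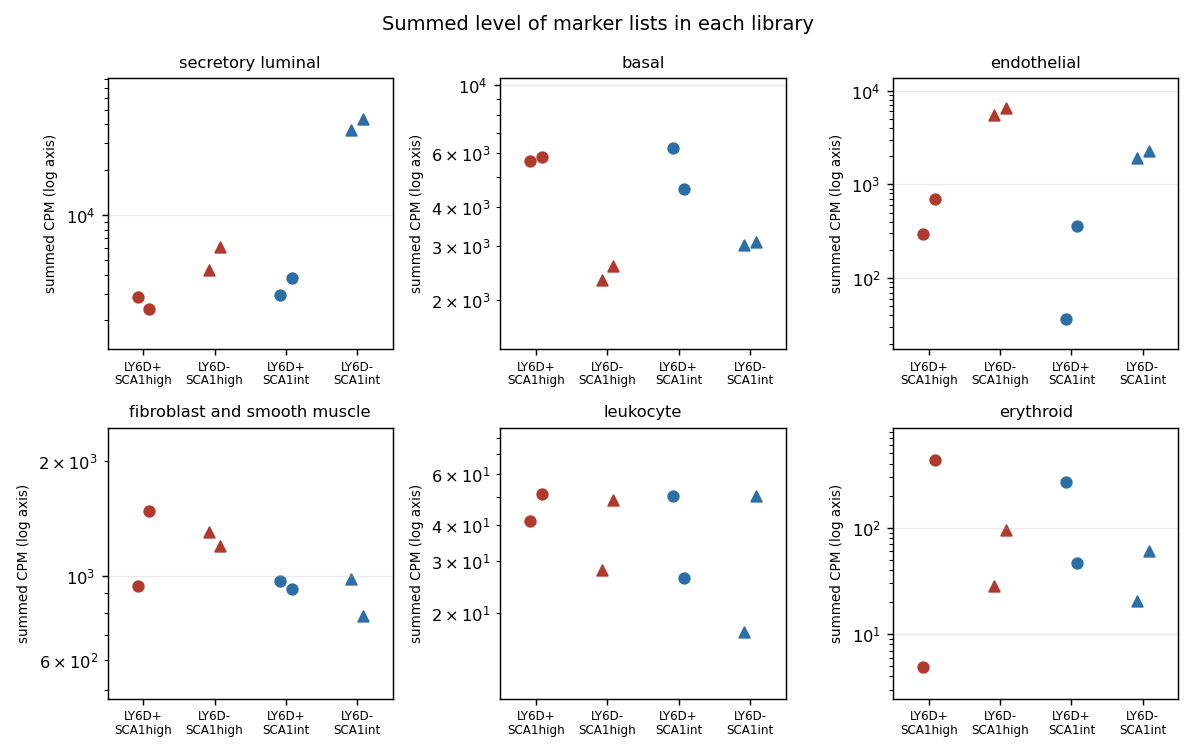
Summed CPM of 6 marker lists in each library on log axes, with both libraries of each population side by side. SCA1high populations are red and stand left of the SCA1int populations in blue. Circles are LY6D+ and triangles LY6D-. The secretory luminal sum is highest in the LY6D- SCA1int pair, from 36738 to 43497, and the endothelial sum in the LY6D- SCA1high pair, from 5551 to 6514.

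None of the 11 stratified and cornified, 20 androgen response, 29 glutathione and xenobiotic, 36 immediate early and heat shock and 27 cell cycle genes tested was called. Their medians were 0.12, -0.58, 0.14, 0.15 and 0.35. Of 8 tested Ly6 genes at and beside the sorted markers 0 were called, with a median of 1.46. Ly6c1 had 18.3 and 19.8 CPM in LY6D+ SCA1high and 201 and 175 in LY6D- SCA1high, against 0.971 and 5.88 in LY6D+ SCA1int and 41.9 and 93.3 in LY6D- SCA1int (1.97 ± 0.90 log2, adjusted p = 0.551). It is also a member of the endothelial list, whose summed level was likewise highest in LY6D- SCA1high.

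The SCA1low libraries place these levels in a longer series, with the SCA1int libraries shared by both steps. In 14 of the 19 genes that fell in SCA1high, the SCA1low mean lay above the SCA1int mean in both LY6D states, which held for 17.1% of the 8067 tested genes with a negative averaged value. Within LY6D-, Pbsn averaged 8906 ± 2473 CPM in SCA1low, 2800.1 ± 361 in SCA1int and 349 ± 103 in SCA1high (SD, n = 2 each). Tcaf3 averaged 2096 ± 455, 366 ± 20.1 and 70.9 ± 38.7 in the same order, and Calr 3313 ± 267, 939 ± 307 and 389 ± 99. The means of these 3 genes were lower at each step from SCA1low to SCA1high. Gsn averaged 157 ± 31.3, 238 ± 59.3 and 767 ± 36.9, so that SCA1high stood above the 2 lower levels. Ackr4 averaged 1.04 ± 0.249, 202 ± 64.1 and 2.93 ± 3.04, with SCA1int the highest. These orders are descriptions, with no test of the series.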

How the data were processed

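Per the labels, RNA of 12 libraries (6 sorted populations, 2 each) was made into QuantSeq 3′ libraries. The submitters' processing notes name build mm10 and, in no stated order, edgeR, Subread, featureCounts, Picard 1.96, SAMtools 1.3.1, STAR 2.5.1 and cutadapt 1.9.1. Annotation and strand setting are not given in the sources used. The authors deposited raw counts per gene, as whole numbers, and these were tested. Their deposited normalised signal values equalled TMM-scaled CPM over all genes within a relative difference of 5.0e-15 and served for 1 alternative.

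Counts were analysed with edgeR 4.0.16 under R 4.3.3. Genes were filtered with filterByExpr on population, scaled by TMM and fitted with 1 mean per population (glmQLFit, glmQLFTest). Benjamini-Hochberg adjustment ran over 15270 genes, and a gene is called below 0.05. The fit has 6 residual degrees of freedom and a common dispersion of 1.65. The SE equals the size of the log2 value over the square root of F. The averaged contrast is the mean of both SCA1high populations minus that of both SCA1int populations. The main model was tested, for the averaged contrast alone, on counts simulated with its own estimates of spread. The alternatives were not tested in this way. Coordinates are 1-based. No molecular identifiers are named, so PCR copies may be counted.

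The members, gene lists and alternatives were chosen with earlier results of these data known. The rule for naming took Ly6a, the 5 given markers and, at an average log2 CPM of 3 or more, up to 12 called genes per direction whose libraries did not overlap in either LY6D state. It also took up to 4 per direction within each LY6D state, the 6 smallest p-values of the difference, up to 6 called members of a list and the 3 most abundant members of lists of other cell types. Remaining called genes and further list members were named after their values were seen. Alternatives were RLE size factors, library size alone, no filter, DESeq2 1.42.0, glmTreat at 1.5-fold, limma-trend (limma 3.58.1) on log2 of deposited values plus 1, a replicate block, the 8 compared libraries alone, an additive model, each of the 8 compared libraries left out (no SCA1low library was left out alone), LY6D+ SCA1high replicate 2 and LY6D- SCA1low replicate 2 left out together as doubted, and ribosomal RNA repeat features left out.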

Additional observations from a re-analysis of the deposited data

Results flagged for a closer look

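In 4 genes the difference between SCA1high and SCA1int differed between LY6D+ and LY6D- cells by the test of the difference itself (edgeR quasi-likelihood test, adjusted p below 0.05). The difference, LY6D+ minus LY6D-, was 3.52 log2 for Defb50, 2.52 for Spink1, 6.12 for Ackr4 and 2.15 for Mt2. In all 4 both LY6D- SCA1high libraries lay below both LY6D- SCA1int libraries, and the LY6D+ pairs overlapped. Under the alternatives, Defb50 kept its call in 18 of 18, Mt2 in 15, Ackr4 in 13 and Spink1 in 12. With 2 libraries a population, no group could be searched for outlying samples. The 2 libraries left out together as doubted were set by name and not by such a search. Of these, LY6D- SCA1low replicate 2 had 11954423 counts and 10796 genes with at least 10 counts.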

How the results depend on the processing

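Of the 21 genes called in the averaged comparison, 4 (Pbsn, 9530053A07Rik, Spink1 and Malat1) kept call and direction under all 19 alternatives, and 0 reversed. The numbers of called genes, given in turn for the averaged comparison, within LY6D+, within LY6D- and for the difference, were 21, 4, 17 and 4 as reported. They were 19, 5, 10 and 3 with RLE size factors, 17, 4, 10 and 5 with library size alone (the difference then 4 higher and 1 lower, against 4 and 0), 62, 28, 59 and 15 with no filter, and 516, 446, 503 and 462 with DESeq2. They were 10, 4, 8 and 3 with glmTreat, 8, 3, 7 and 1 with limma-trend, 28, 3, 26 and 8 with the 8 libraries alone, 34, 15, 40 and 7 without both doubted libraries and 25, 5, 20 and 4 without ribosomal RNA repeat features. The additive model called 9 in the averaged comparison. Leaving out a library also moved the median log2 fold change of all tested genes, which ran from -0.64 without LY6D+ SCA1high replicate 1 to 0.17 without LY6D- SCA1int replicate 1, so single-gene values without a library hold that shift. Leaving out each of the 8 compared libraries gave 14 to 39, 4 to 13, 8 to 33 and 2 to 6. The highest averaged counts came without LY6D+ SCA1int replicate 2 (39) and LY6D+ SCA1high replicate 2 (32). The number called higher, 2 as reported, was 0 without LY6D+ SCA1high replicate 2, LY6D+ SCA1int replicate 1, LY6D- SCA1int replicate 1 or LY6D- SCA1int replicate 2, and 10 without LY6D+ SCA1int replicate 2 and with the 8 libraries alone. DESeq2 called 165 genes higher and 351 lower on average, 292 and 211 within LY6D-, and 85 and 377 for the difference. Of the calls reported it kept 19 of 21, 14 of 17 and 2 of 4. Of the calls of the averaged comparison, RLE size factors ended those of Emp1 and Gm26917, library size alone ended those of A630095E13Rik, Dnajc10, Gm43305 and Mt2, DESeq2 ended those of Gm26917 and Mt2, and glmTreat ended those of 9530002B09Rik, A630095E13Rik, Calr, Dnajc10, Emp1, Gm26917, Gm37376, Gm43305, Gsn, Mt2 and Zdhhc3. Further, limma-trend ended those of 9530002B09Rik, A630095E13Rik, Ackr4, Dnajc10, Emp1, Fcgbp, Gm26917, Gm43305, Gsn, Msmb, Sbp, Tcaf3 and Zdhhc3, the additive model ended those of 9530002B09Rik, A630095E13Rik, Ackr4, Calr, Defb50, Dnajc10, Emp1, Gm26917, Gm43305, Msmb, Mt2 and Zdhhc3, the 8 compared libraries alone ended those of A630095E13Rik, Dnajc10 and Gm26917, and both doubted libraries left out ended those of Emp1 and Gm43305. Within LY6D-, RLE size factors ended those of Cldn4, Defb1, Dnajc10, Gm26917, Nfkbia, Scpep1 and Zdhhc3, library size alone ended those of Cldn4, Defb1, Dnajc10, Gm45774, Prdx6, Scpep1 and Zdhhc3, and DESeq2 ended those of Cldn4, Gm26917 and Nfkbia. Further, glmTreat ended those of Cldn4, Defb1, Dnajc10, Gm26917, Gm45774, Nfkbia, Prdx6, Scpep1 and Zdhhc3, limma-trend ended those of Cldn4, Defb1, Dnajc10, Gm26917, Gm45774, Nfkbia, Prdx6, Sbp, Scpep1 and Zdhhc3, and the 8 compared libraries alone ended those of Dnajc10, Gm26917, Prdx6 and Zdhhc3. The cause of these differences was not tested. With the replicate number as a block the counts were 31, 6, 23 and 5. The library names carry a prefix shared by all libraries of 1 replicate number, whose meaning is not stated. The libraries were treated as unpaired, since correlations of the replicate differences between the 4 populations were -0.01 to 0.12, with 1 of 6 over 0.1, and whether the prefix marks a shared source was not tested. Krt8, at -0.15 log2, had 0.056 with library size alone and -0.47 to 0.46 over the libraries left out, the highest without LY6D- SCA1int replicate 1. Cdh5, at 3.11 log2, had -0.19 to 7.48 over the libraries left out, the lowest without LY6D+ SCA1high replicate 2 and the highest without LY6D+ SCA1int replicate 2, and -0.20 without both doubted libraries. Depth limits genes of a few counts per library most.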

Other observations

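Some genes with large values in SCA1high were not called and were chosen after their values were seen. Crispld2, a secreted protein of the cysteine-rich family, had 95.9 and 181 CPM in LY6D+ SCA1high and 123 and 4.53 in LY6D- SCA1high, against 2.97 and 10.7 in LY6D+ SCA1int and 0.309 and 0.858 in LY6D- SCA1int (5.55 ± 1.3 log2, adjusted p = 0.124). Igf1, a growth factor often made by stromal cells, had 31.7 and 113 CPM in LY6D+ SCA1high and 61.8 and 137 in LY6D- SCA1high, against 1.89 and 14.5 in LY6D+ SCA1int and 0.669 and 0.429 in LY6D- SCA1int (5.30 ± 1.35 log2, adjusted p = 0.231). In both genes the SCA1high libraries lay above the SCA1int libraries within each LY6D state. The chemokine gene Cxcl12 had 2.08 ± 0.55 log2, the opioid precursor gene Penk 4.34 ± 1.22 and the water channel gene Aqp1 1.99 ± 0.51, with adjusted p = 0.296, 0.373 and 0.244. The summed levels of endothelial and fibroblast markers in these libraries are given with Gsn and Emp1, and their part was not tested.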
